A study of Mus musculus with 18 samples.

Results

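The choroid plexus epithelium is the secretory cell layer that hangs into the brain ventricles, and 33 of its marker and working genes were followed here through the hemibrains of mice carrying human APOE2, APOE4 or APOE3. The genes were taken as a list of symbols from the raw count table, which holds 52459 symbols, and all 33 were in the table and passed the filter on low counts. The mice were 12 months old, on a C57bl/6 background, and homozygous for a human allele in place of mouse Apoe (targeted replacement), so no group kept a mouse Apoe allele and no wild-type group was among them. Each genotype, APOE2, APOE4 and APOE3, had 6 mice, 3 females and 3 males, with 1 polyA RNA-seq library a mouse. The labels name a separate mouse for each library. The choroid plexus was not dissected, and its transcripts were read out of whole hemibrain RNA, in which fewer epithelial cells and less RNA per cell cannot be told apart.

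Choroid plexus epithelial cells make most of the cerebrospinal fluid. They move sodium, chloride, bicarbonate and water from the blood side to the ventricle, seal the blood to fluid barrier with tight junctions, and secrete carriers and growth factors, above all transthyretin. Receptors on their surface take up hormones and vitamins, prolactin and folate among them, for passage into the fluid. Several of the 33 genes are also known from other cells: Enpp2 from oligodendrocytes, Igf2, Igfbp2 and Slc13a4 from the meninges, and Kl and Prlr from some neurons. How much of any gene's counts came from outside the plexus was not tested, Car12 and Cab39l included.

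Library totals ran from 43818967 to 59394503 counts, and the 33 genes together took 0.122% to 0.237% of a library's counts. All levels below are in CPM, counts relative to the library size after TMM scaling, and a gene is called where the edgeR quasi-likelihood test gave a Benjamini-Hochberg adjusted p under 0.05 over 18891 genes. The plexus was present in every library: Ttr, transthyretin, the carrier of thyroxine and of the retinol complex, ran from 362 to 1070 CPM across the 18 mice. Per kilobase of annotated exon, Ttr averaged 530 CPM and stood first, followed by Enpp2 at 91.8, Igfbp2 at 17.1 and Igf2 at 14.4 CPM per kilobase. At the low end of that scale of levels were Tmem72 at 0.586 and Oca2 at 0.223 CPM per kilobase. Tmem72 had the longest annotated exons of the list, 17.2 kilobases, and genotype means of 6.19 to 15.8 CPM before division by length. Summed levels of 8 neuronal markers lay between 6864 and 7918 CPM, and those of 8 astrocyte markers between 4269 and 5309 CPM, in these libraries labelled hemibrain.

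In APOE2 mice, 5 of the 33 genes rose against APOE3 and none fell. They were Prlr, Col8a1, Calml4, Car12 and Cab39l, so 1 receptor, 1 matrix collagen, 1 calmodulin-like protein and 2 genes of the ion transport group. Of all genes tested in that pair, 3.91% were called, and 1.9% were called higher in APOE2. The fitted log2 difference was above 0 for 31 of the 33 genes, against 51.2% of all genes, with a median of 0.36 over the list and 0.003 over all genes. At an unadjusted p under 0.05, 15 of the 33 were higher in APOE2 by edgeR, and 9.22% of all genes were. Many of the 33 genes stood on the same side of their mean in the same mice, as given below. Counts over the list, here and in the comparisons below, are thus not counts of independent genes. No gene of the list had 6 APOE2 values clear of the 6 APOE3 values, which 1.43% of all genes did in the higher direction.

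In APOE4 mice, 1 gene, Tmem72, rose against APOE3 and none fell, where 0.773% of all genes tested were called. The fitted difference was above 0 for 32 of the 33 genes, against 52% of all genes, with a median of 0.15. That comparison and the one of APOE2 with APOE3 share the 6 APOE3 mice. In APOE2 against APOE4, Calml4 rose and Tmem72 fell, where 6.53% of all genes were called. The fitted difference in that pair was above 0 for 26 of the 33 genes, against 50.8% of all genes, with a median of 0.17. Without APOE2 replicate 6 the test called 4 of the list in that pair (7.55% of all genes), and without APOE4 replicate 5 it called 5 (10.0%). The authors' deposited tables called 7 of the list higher in APOE2 over APOE3 (4.19% of their genes), Calml4 higher and Tmem72 lower in APOE2 over APOE4 (7.21%), and Tmem72 lower in APOE3 over APOE4 (1.25%), which runs the other way round.

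**Figure D1:**
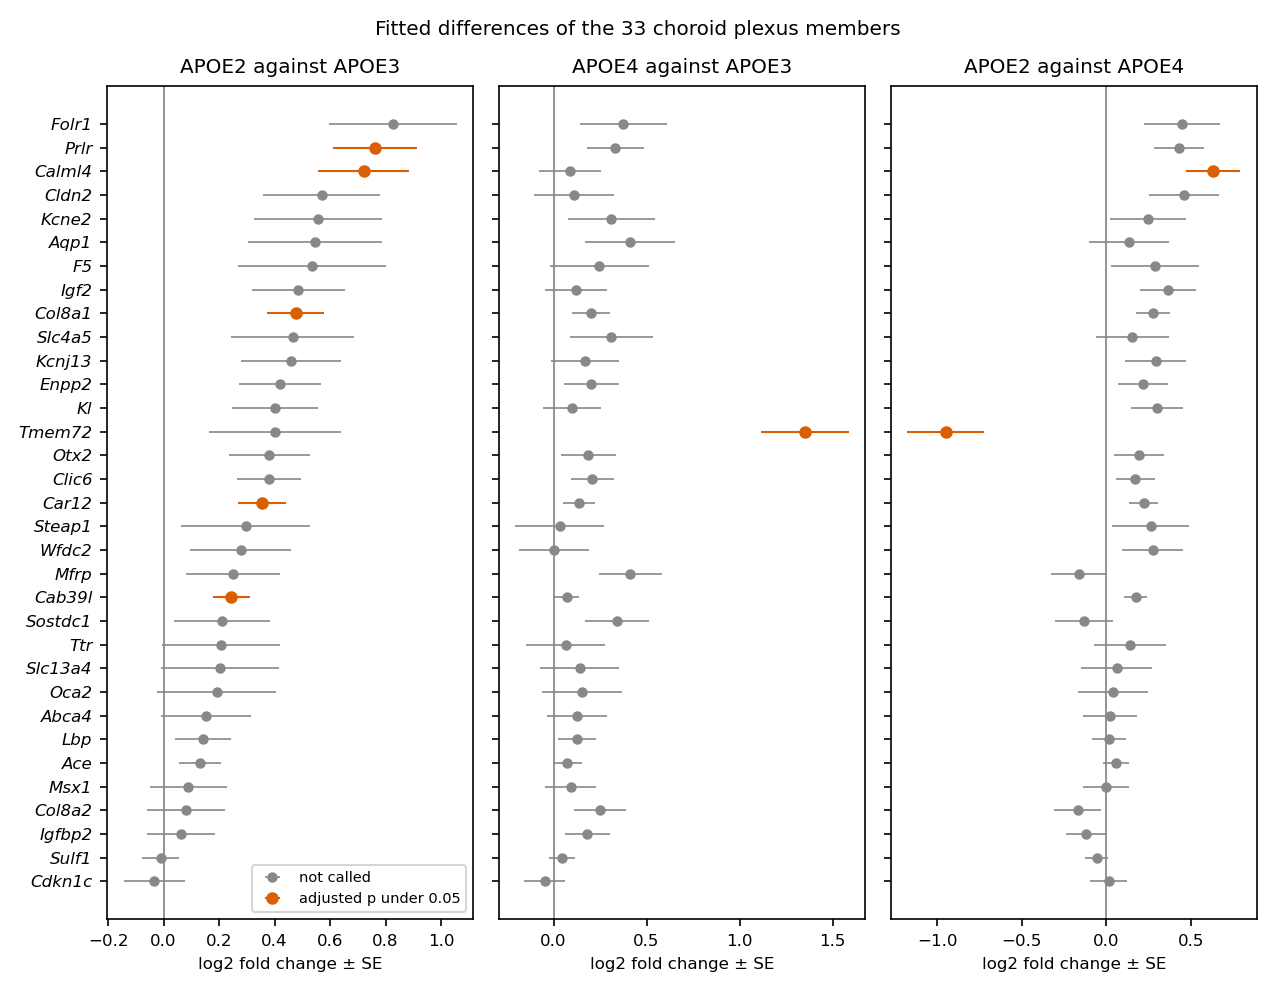
Fitted log2 fold change ± SE of the 33 genes (rows) in each genotype pair (panels), 6 mice a genotype; orange marks an adjusted p under 0.05. In APOE2 against APOE3, 31 of 33 points lie right of 0, and Tmem72 stands apart in both pairs that contain APOE4.

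Among the receptors, Prlr, the prolactin receptor (chromosome 15, 10177238 to 10349180, plus strand, GRCm38), had a lowest, median and highest level of 12.2, 22.7 and 30.8 CPM in APOE2 mice, against 10.0, 11.2 and 18.3 CPM in APOE3 mice. The APOE2 mean was 21.9 ± 6.98 CPM and the APOE3 mean 12.7 ± 3.21 CPM (SD, n = 6 each), a log2 fold change of 0.76 (SE 0.15, edgeR adjusted p = 0.00484). APOE4 mice had 11.3, 15.8 and 20.4 CPM. In APOE2, 4 of the 6 mice lay above the APOE3 maximum, and male replicates 5 and 6 lay inside the APOE3 range. Without the sex term in the model the adjusted p of Prlr became 0.0691.

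Folr1, the folate receptor that carries folate into the fluid, had 4.08, 6.24 and 8.71 CPM in APOE2 mice, against 2.38, 3.45 and 4.68 CPM in APOE3 mice. Its fitted difference, 0.83 on the log2 scale (SE 0.23), was larger than that of Prlr but missed the threshold in the edgeR quasi-likelihood test (adjusted p = 0.0587). Under DESeq2 its adjusted p was 0.0193. APOE4 mice had 3.34, 4.73 and 5.66 CPM, a difference of 0.38 from APOE3 (SE 0.23, edgeR adjusted p = 0.735).

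Kl, klotho, a co-receptor for FGF hormones that is shed into the fluid, had 23.1, 31.2 and 43.0 CPM in APOE2 mice, 18.9, 25.6 and 32.0 CPM in APOE4 mice and 19.8, 22.7 and 31.3 CPM in APOE3 mice. In APOE2, 3 of the 6 mice lay above every APOE4 and APOE3 mouse, and the other 3 lay inside their range. The difference of APOE2 from APOE3 was 0.40 (SE 0.15) and was not called (edgeR adjusted p = 0.192).

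Of the 9 secreted carriers, hormones and enzymes, none was called in any genotype pair. Ttr had 362, 670 and 1070 CPM in APOE2 mice, 390, 649 and 738 CPM in APOE4 mice and 496, 574 and 711 CPM in APOE3 mice. The APOE2 mice thus held both the lowest and the highest Ttr level of the series. The difference from APOE3 was 0.21 in APOE2 (SE 0.21, edgeR adjusted p = 0.67) and 0.07 in APOE4 (SE 0.21, edgeR adjusted p = 0.98). The APOE2 difference was 0.08 without APOE2 replicate 5, 0.13 without APOE2 replicate 1 or APOE3 replicate 2, and 0.34 without APOE2 replicate 3, and was called in none of these fits. Fitted differences of APOE2 from APOE3 over these 9 genes ran from 0.06 for Igfbp2, which binds insulin-like growth factors, to 0.54 for F5, coagulation factor V, with a median of 0.21. Between them were Igf2, a growth factor of the fluid, at 0.49, Enpp2, the enzyme that makes lysophosphatidic acid, at 0.42, and Wfdc2, a small secreted protein with whey acidic protein domains, at 0.28. Sostdc1, a secreted antagonist of BMP and WNT signals, was at 0.21, Lbp, which binds bacterial lipopolysaccharide, at 0.14, and Ace, the angiotensin-converting enzyme, at 0.13.

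In the ion and water transport group of 9 genes, Car12 and Cab39l rose in APOE2 against APOE3 and the other 7 were not called. Car12, a carbonic anhydrase of the cell surface (chromosome 9, 66713686 to 66766845, plus strand), had 29.7, 35.6 and 39.0 CPM in APOE2 mice, against 24.8, 26.8 and 31.4 CPM in APOE3 mice. In APOE2, 5 of 6 mice lay above the APOE3 maximum. The means were 35.1 ± 3.76 and 27.4 ± 2.81 CPM in APOE2 and APOE3 mice (SD, n = 6 each), a log2 fold change of 0.36 (SE 0.09, edgeR adjusted p = 0.0182).

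Cab39l, a scaffold that activates STE20-type kinases (chromosome 14, 59440972 to 59585764, plus strand), had 38.3, 45.7 and 50.5 CPM in APOE2 mice, against 35.6, 39.4 and 40.7 CPM in APOE3 mice. Its difference, 0.24 on the log2 scale (SE 0.07, edgeR adjusted p = 0.042), was the smallest of the 5 called. It was no longer called without APOE2 replicates 1, 4 or 5, without any 1 of the APOE3 mice, or without APOE4 replicates 3 or 6, with an adjusted p of up to 0.127. Car12 crossed the threshold likewise without APOE2 replicates 1, 4 or 5 or APOE3 replicates 2, 3 or 6, with an adjusted p of up to 0.0587. The count of genes called in APOE2 against APOE3 was 3 without APOE2 replicate 1, 4 or 5 or APOE3 replicate 2 or 3, and 8 without APOE2 replicate 3. Of all genes, the fits with 3 called 3.10% to 3.29%, and the fit with 8 called 3.70%.

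Aqp1, the water channel of the ventricle side, had 3.39, 4.97 and 8.03 CPM in APOE2 mice, 3.50, 4.84 and 6.65 CPM in APOE4 mice and 2.73, 3.34 and 5.54 CPM in APOE3 mice. The 3 ranges overlapped widely. Its difference of APOE2 from APOE3 was 0.55 (SE 0.24, edgeR adjusted p = 0.263). The remaining transport genes were not called, with fitted differences of APOE2 from APOE3 of 0.57 for Cldn2, the tight junction protein that forms a cation pore, 0.56 for Kcne2, a potassium channel subunit, and 0.47 for Slc4a5, a sodium bicarbonate cotransporter. Kcnj13, an inward rectifier potassium channel, was at 0.46, Clic6, a chloride channel family protein, at 0.38, and Slc13a4, a sulfate transporter, at 0.20.

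In the matrix group, Col8a1 rose in APOE2 mice while Col8a2, the partner chain of type VIII collagen, was not called. Col8a1 (chromosome 16, 57624258 to 57754737, minus strand) had 6.37, 8.08 and 9.94 CPM in APOE2 mice, against 4.89, 5.71 and 6.98 CPM in APOE3 mice. Its means were 8.18 ± 1.20 CPM in APOE2 and 5.91 ± 0.877 CPM in APOE3 mice (SD, n = 6 each), a log2 fold change of 0.48 (SE 0.10, edgeR adjusted p = 0.00523). All APOE2 mice but 1 lay above the APOE3 maximum.

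Fitted differences of APOE2 from APOE3 were 0.08 for Col8a2 and -0.01 for Sulf1, an enzyme that trims heparan sulfate. Of the 3 regulators of transcription and growth, Otx2, the homeobox factor required to form the plexus, had 4.23, 6.02 and 7.38 CPM in APOE2 mice, 3.26, 5.54 and 6.05 CPM in APOE4 mice and 3.62, 4.46 and 5.70 CPM in APOE3 mice. Its ranges overlapped, and the APOE2 difference from APOE3 of 0.38 (SE 0.15) was not called (edgeR adjusted p = 0.184). Msx1, another homeobox factor, was at 0.09 and Cdkn1c, an inhibitor of the cell cycle, at -0.03.

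Calml4 and Tmem72 belong to the 6 other membrane and cytoskeletal proteins and were the only genes of the list called in 2 genotype pairs. Calml4, a calmodulin-like protein known from the brush border of the intestine (chromosome 9, 62858080 to 62875921, plus strand), had 2.72, 3.97 and 5.86 CPM in APOE2 mice, 2.11, 2.63 and 2.95 CPM in APOE4 mice and 1.76, 2.39 and 3.12 CPM in APOE3 mice. The APOE2 mean of 4.03 ± 1.15 CPM stood against 2.60 ± 0.313 CPM in APOE4 and 2.43 ± 0.477 CPM in APOE3 mice (SD, n = 6 each). The log2 fold change of APOE2 was 0.72 against APOE3 (SE 0.16, edgeR adjusted p = 0.00973) and 0.63 against APOE4 (SE 0.16, edgeR adjusted p = 0.017). APOE4 differed from APOE3 by 0.09 (SE 0.17, edgeR adjusted p = 0.958). In APOE2, 4 of the 6 mice had more Calml4 than any APOE4 or APOE3 mouse.

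Tmem72, a transmembrane protein of the plexus epithelium and kidney (chromosome 6, 116679063 to 116716913, minus strand), had 9.75, 15.8 and 21.1 CPM in APOE4 mice, against 4.80, 5.83 and 9.21 CPM in APOE3 mice. The 6 APOE4 values lay above all 6 APOE3 values, which held in the higher direction for 0.715% of all genes. The means were 15.8 ± 4.26 CPM in APOE4 and 6.19 ± 1.60 CPM in APOE3 mice (SD, n = 6 each), a log2 fold change of 1.35 (SE 0.24, edgeR adjusted p = 0.00762). APOE2 mice had 4.85, 8.35 and 10.9 CPM, which overlapped both other genotypes. Against APOE4, Tmem72 fell by 0.95 on the log2 scale in APOE2 mice (SE 0.23, edgeR adjusted p = 0.0184), and against APOE3 APOE2 mice differed by 0.40 (SE 0.24, edgeR adjusted p = 0.42).

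The mouse titles end in letters that the labels do not explain, and no APOE2 title shares the letters e and f, which 5 APOE4 and 5 APOE3 titles carry. Within those 10 mice the Tmem72 difference of APOE4 from APOE3 was 1.22, with an edgeR adjusted p of 0.0653. The other 4 genes of this group were not called in any pair. In APOE2 against APOE3 their differences were 0.30 for Steap1, of a family of metal reductases, 0.25 for Mfrp, a frizzled-related membrane protein, 0.19 for Oca2, a melanosome transport protein, and 0.15 for Abca4, a retinoid transporter of photoreceptors. In APOE4 against APOE3, Mfrp was at 0.41 (SE 0.17, edgeR adjusted p = 0.445).

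**Figure D2:**
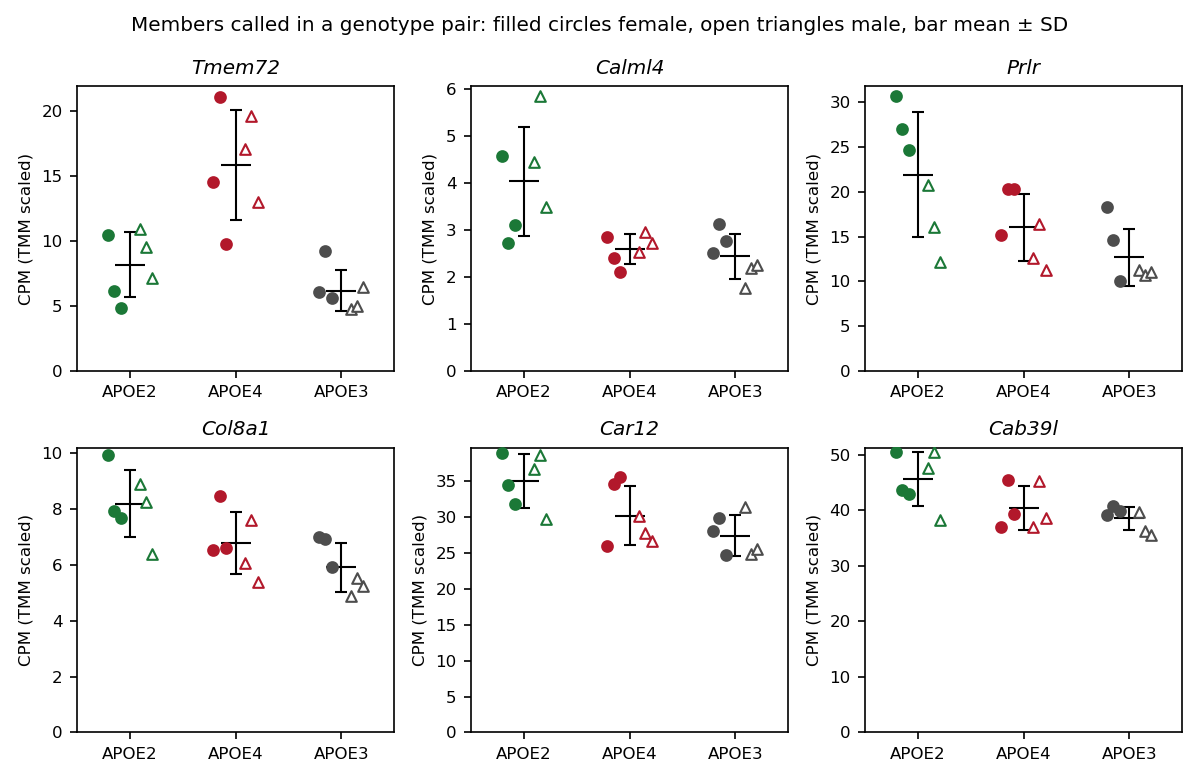
CPM in each mouse (points; filled circles female, open triangles male) with the mean ± SD of each genotype, for the 6 genes called in a genotype pair. The 6 APOE4 values of Tmem72 lie above every APOE3 value, and the other genes overlap between APOE2 and APOE3 at the edges.

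Some counts may have gained or lost reads where a neighbour shares exons. By the GENCODE annotation of GRCm38, Igf2 shares 62.8% of its exonic bases with Gm49394 and Mfrp 36.7% with C1qtnf5, both on the same strand, and Kcnj13 shares 49.1% with Gigyf2 and Cdkn1c 30.7% with an antisense transcript on the opposite strand. The levels of these genes are therefore uncertain. Prlr shares 1.32% and Cab39l 3.82% of exonic bases with a neighbour, and Tmem72, Calml4, Col8a1 and Car12 none.

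The promoters of some called genes are shown: Tmem72 and Calml4 differed in which genotype was highest, while Prlr and Car12 were both called in APOE2 against APOE3. Those of Col8a1 and Cab39l, also called in APOE2 against APOE3, are not shown and held no match to the forkhead motif. Sequences are from RefSeq on GRCm38.p6, 300 bases around an annotated start, 5′ to 3′ on the gene's strand, from chr6:116716709-116717008 (minus), chr9:62857854-62858153 (plus), chr15:10176988-10177287 (plus, the first of 3 Prlr starts) and chr9:66713436-66713735 (plus). Capitals mark a match to the forkhead motif TAAACA or its reverse complement TGTTTA.
Tmem72: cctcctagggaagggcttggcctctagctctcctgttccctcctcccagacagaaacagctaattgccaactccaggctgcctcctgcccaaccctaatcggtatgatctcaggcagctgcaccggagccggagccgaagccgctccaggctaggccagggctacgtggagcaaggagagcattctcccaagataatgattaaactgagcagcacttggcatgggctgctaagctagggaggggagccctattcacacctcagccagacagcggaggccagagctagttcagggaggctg
Calml4: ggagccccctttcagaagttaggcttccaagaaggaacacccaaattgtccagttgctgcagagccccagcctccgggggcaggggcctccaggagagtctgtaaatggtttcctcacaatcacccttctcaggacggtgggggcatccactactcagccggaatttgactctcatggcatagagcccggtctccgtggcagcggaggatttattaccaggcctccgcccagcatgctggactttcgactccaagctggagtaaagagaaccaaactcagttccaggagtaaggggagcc
Prlr: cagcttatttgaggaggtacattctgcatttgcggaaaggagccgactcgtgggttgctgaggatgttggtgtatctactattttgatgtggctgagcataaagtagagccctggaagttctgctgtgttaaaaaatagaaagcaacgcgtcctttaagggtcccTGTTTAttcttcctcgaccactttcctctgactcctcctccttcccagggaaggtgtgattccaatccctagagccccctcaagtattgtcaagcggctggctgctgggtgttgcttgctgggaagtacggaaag
Car12: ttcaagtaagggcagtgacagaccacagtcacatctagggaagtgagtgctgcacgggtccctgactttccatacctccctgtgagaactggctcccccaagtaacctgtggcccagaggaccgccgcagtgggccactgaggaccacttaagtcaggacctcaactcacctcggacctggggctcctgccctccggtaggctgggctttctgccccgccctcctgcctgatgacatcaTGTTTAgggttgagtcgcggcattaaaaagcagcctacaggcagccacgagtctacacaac

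Promoters were read for 25 of the 33 genes, in 38 sequences. Cdkn1c, Clic6, Enpp2, Folr1, Lbp, Sostdc1 and Sulf1 had no entry. Sequences on chromosome 18, where Ttr lies, were left out for the list but not for all genes. Whether Ttr had an entry was not tested. The forkhead motif was in a promoter of 5 of the 25 genes (20%), Car12, Cldn2, Igfbp2, Kcnj13 and Prlr, and of 15.1% of 27025 genes with a promoter entry. TAATCC or GGATTA, the core read by OTX factors, was in 5 (20%), Abca4, Ace, Igf2, Mfrp and Otx2 itself, and in 8.14% of all. The homeodomain palindrome TAATTA was in 3 genes (12% against 6.12% of all) and TATAAA or TTTATA in 6 (24% against 15.7%). A gene with several sequences was counted where any of them matched. Per sequence, shares were 15.8% of the list against 13.4% of all 32851 for the forkhead motif and 13.2% against 7.06% for TAATCC. They were 10.5% against 5.29% for TAATTA and 15.8% against 13.6% for TATAAA. The promoters printed for Tmem72 and Calml4 held none of these letters, and neither did those of Col8a1 and Cab39l.

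Within a genotype, many of the 33 genes stood on the same side of their mean in most mice. In APOE2, 32 of 33 lay above their own genotype's mean in male replicate 5, 29 in female replicate 1 and 26 in male replicate 4, against 5, 2 and 1 in replicates 2, 6 and 3. The median deviation, on the scale of log2(CPM + 0.5), was 0.34 in replicate 5 and -0.34 in replicate 3. In APOE4, 30 genes were above the mean in female replicate 2 and 28 in male replicate 5, against 3 in male replicate 6 and 4 in female replicate 3. The other APOE4 mice were less one-sided, with 22 above the mean in male replicate 4 and 16 in female replicate 1. In APOE3, female replicate 5 had 30 above its mean, and the 3 male mice had 4, 4 and 11. The 3 APOE3 females had 20 to 30 genes above the mean, more than any APOE3 male, while females and males overlapped in this count in APOE2 and APOE4.

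Spread between mice was widest in APOE2. The median coefficient of variation of the 33 genes was 24.1% in APOE2, 17.3% in APOE4 and 15.8% in APOE3 mice, where other genes had medians of 8.22%, 8.29% and 5.80%. It was largest in APOE2 for 22 genes, in APOE4 for 3 and in APOE3 for 8. Ttr had 38.5% in APOE2, 20.1% in APOE4 and 13.3% in APOE3 mice. The widest single value was 44.9% for Steap1 in APOE2, and the narrowest was 5.38% for Cab39l in APOE3. Cab39l had 10.6% in APOE2 and 9.67% in APOE4 mice, and Car12 had 10.7%, 13.6% and 10.2% in APOE2, APOE4 and APOE3 mice. Both genes thus lay below the median of the list in each genotype.

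**Figure D3:**
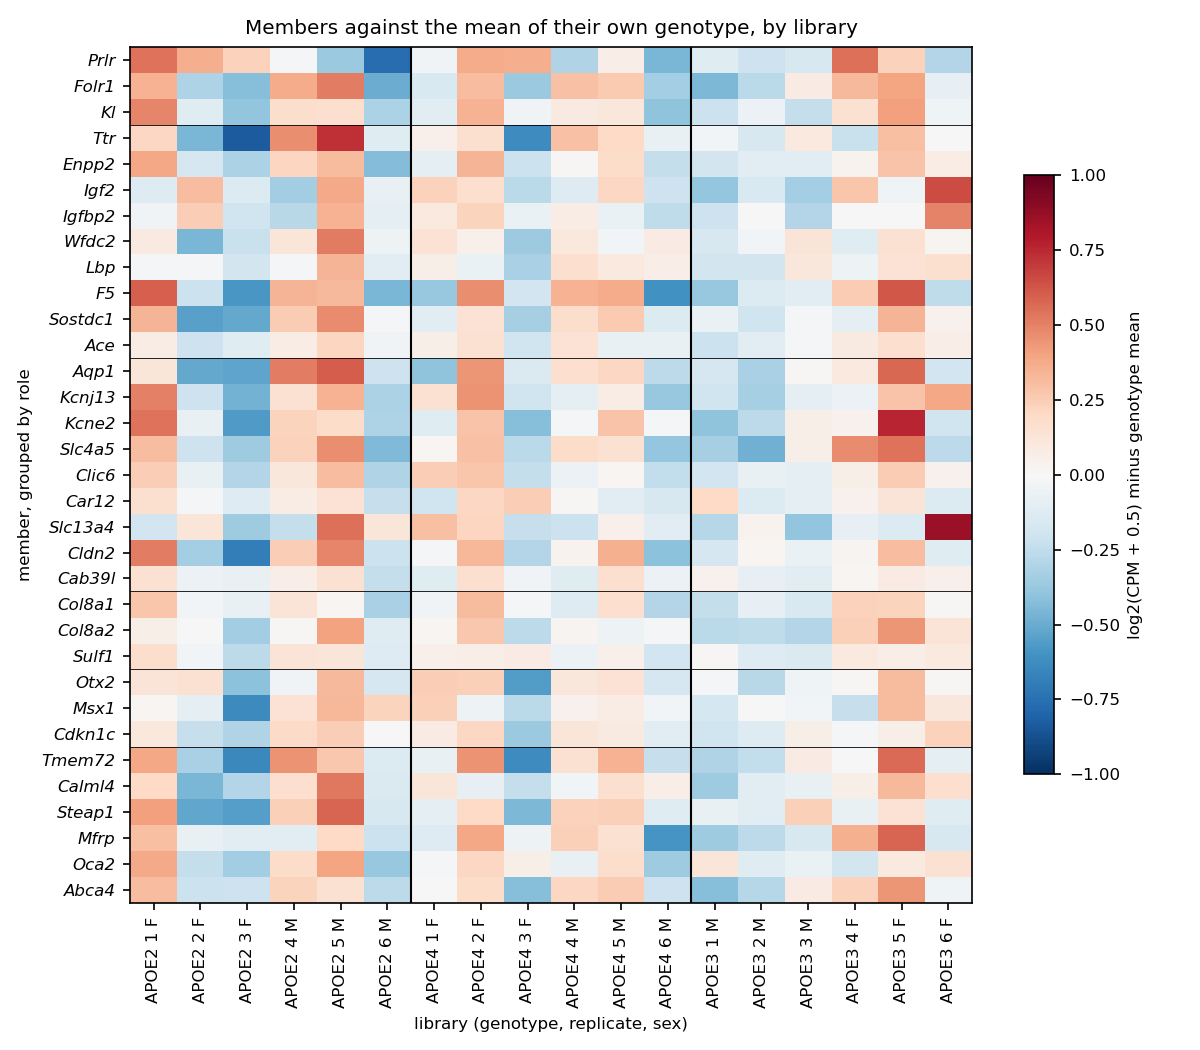
Deviation of each gene (rows, grouped by role) from the mean of its own genotype on the log2(CPM + 0.5) scale, for the 18 mice (columns; F female, M male). Many columns are mostly of 1 colour: red in APOE2 replicates 1, 4 and 5, APOE4 replicates 2 and 5 and APOE3 replicate 5, blue in APOE2 replicates 2, 3 and 6, APOE4 replicates 3 and 6 and APOE3 replicates 1 and 2. APOE4 replicate 1 is mixed, with 16 of 33 genes above the mean.

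Differences were also fitted with log2 CPM of Ttr, itself 1 of the 33 genes, as a covariate. In APOE2 against APOE3, 8 of the other 32 genes were then called, all higher, where 3.5% of all genes were called: Prlr, Calml4, Col8a1, Car12, Folr1, Clic6, Enpp2 and Kcnj13, but not Cab39l. The Folr1 difference was then 0.63 (SE 0.13, edgeR adjusted p = 0.00361) and that of Calml4 0.58 (SE 0.11, edgeR adjusted p = 0.00158). In APOE4 against APOE3, Tmem72 was again the 1 gene called (0.708% of all genes), at 1.28 (SE 0.10, edgeR adjusted p = 1.7e-08).

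Counted per 100 Ttr reads, Tmem72 had a lowest, median and highest value of 2.27, 2.41 and 3.13 reads in APOE4 mice, 0.895, 1.27 and 1.40 in APOE2 mice and 0.847, 1.01 and 1.30 in APOE3 mice. On this ratio the APOE4 mice lay above every mouse of both other genotypes, by 2.40-fold in the median against APOE3. Of all genes, 0.482% had lower ratios in every APOE2 mouse than in every APOE4 mouse, and 0.159% had higher ratios in every APOE4 mouse than in every APOE3 mouse. Sostdc1 was the other gene of the list with ratios higher in every APOE4 than APOE3 mouse, but only just. It had 0.8021, 0.882 and 1.09 reads per 100 Ttr reads in APOE4 and 0.685, 0.743 and 0.8016 in APOE3 mice, so the groups all but touched. The level of Sostdc1 itself was not called (0.34, SE 0.17, edgeR adjusted p = 0.606).

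**Figure D4:**
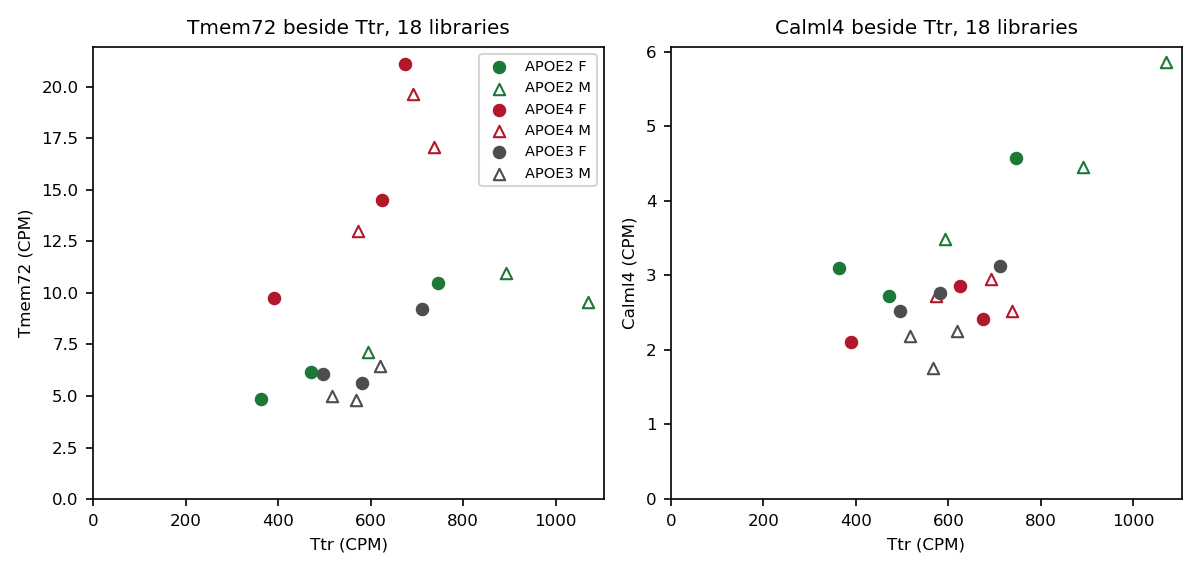
CPM of Tmem72 (left) and Calml4 (right) against CPM of Ttr in the 18 mice, coloured by genotype, with filled circles for females and open triangles for males. The APOE4 mice have 9.75 to 21.1 CPM of Tmem72 and lie above mice of both other genotypes at similar Ttr, and the 4 highest Calml4 levels are those of APOE2 mice.

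Neither sex was called above the other for any of the 33 genes by edgeR, where 0.132% of all genes were called; 2 genes, Prlr and Col8a1, had an unadjusted p under 0.05, and DESeq2 called Prlr (0.312% of all genes). For Prlr the 3 females and 3 males had 24.7, 27.1 and 30.8 against 12.2, 16.1 and 20.7 CPM in APOE2, so that the sexes did not overlap there. In APOE4, females had 15.2, 20.3 and 20.4 CPM and males 11.3, 12.7 and 16.4 CPM. In APOE3, females had 10.0, 14.7 and 18.3 CPM and males 10.7, 11.1 and 11.3 CPM, and the sexes overlapped in both genotypes. The female difference from males over all 18 mice was 0.54 (SE 0.12, unadjusted p = 0.000413, edgeR adjusted p = 0.147).

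The fitted difference of APOE2 from APOE3 was lower in females than in males for 32 of the 33 genes, but no single gene passed the test of that difference. The interaction, the difference in females minus that in males, had a median of -0.51 and was below 0 for 32 genes, where 51.5% of all genes were above 0. No gene of the table was called, 0% of those tested by edgeR, and 7 of the list had an unadjusted p under 0.05 and were below 0, as were 3.34% of all genes. DESeq2 and limma voom called none of the list. With no filter on low counts edgeR called 10 of the 33, where it called 0.497% of all genes. For APOE4 against APOE3 the interaction was below 0 for 30 of the 33 genes (median -0.25), where 51.6% of all genes were above 0. For APOE2 against APOE4 it was below 0 for 29 (median -0.21), where 48.8% of all genes were above 0. In these 2 contrasts edgeR called none of the list, 0.0103% and 0% of all genes, with 2 and 0 of the list below 0 at an unadjusted p under 0.05 (3.14% and 1.38% of all genes). Without the filter it called 3 and 1 of the list, and 0.447% and 0.129% of all genes. Of the interactions of APOE2 with APOE3, Col8a2 had the smallest p, with a value of -0.81 (SE 0.21, edgeR adjusted p = 0.722).

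Within females, the APOE2 difference from APOE3 was above 0 for 20 of the 33 genes, against 49.6% of all genes, with a median of 0.04, and Prlr rose (0.94, SE 0.21, edgeR adjusted p = 0.0324), where 2% of all genes were called. Within males it was above 0 for all 33, against 49.2% of all genes, with a median of 0.56, and Calml4 (1.15, SE 0.20, edgeR adjusted p = 0.00107) and Col8a1 (0.58, SE 0.15, edgeR adjusted p = 0.0441) rose, where 1.93% of all genes were called. At an unadjusted p under 0.05, edgeR had 3 of the 33 higher in APOE2 within females (7.48% of all genes) and 25 within males (5.21% of all genes). Each sex and genotype had 3 mice, and the genes moved together within a mouse, so these counts are not of independent genes. Aqp1 had 3.39, 3.42 and 5.60 CPM in APOE2 females, against 3.06, 3.85 and 5.54 CPM in APOE3 females. In males it had 4.34, 7.49 and 8.03 CPM in APOE2, against 2.73, 3.11 and 3.58 CPM in APOE3. The females of the 2 genotypes overlapped and the males were apart, and the interaction for Aqp1 was -1.08 (SE 0.42, edgeR adjusted p = 0.803).

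For APOE4 against APOE3 the median was 0.03 within females, with 19 above 0 (50.8% of all genes), and 0.27 within males, with all 33 above 0 (47% of all genes). None of the list was called within females, where edgeR called 0.424% of all genes and 1 gene of the list was higher at an unadjusted p under 0.05 (3.92% of all genes). None was called within males either, where edgeR called 0.357% of all genes and 7 of the list were higher at an unadjusted p under 0.05 (4.24% of all genes). Tmem72 had 9.75, 14.5 and 21.1 CPM in APOE4 females, against 5.61, 6.05 and 9.21 CPM in APOE3 females. In males it had 12.99, 17.1 and 19.6 CPM in APOE4, against 4.80, 5.01 and 6.43 CPM in APOE3. APOE4 and APOE3 mice did not overlap in either sex, at log2 differences of 1.12 in females (edgeR adjusted p = 0.281) and 1.60 in males (edgeR adjusted p = 0.0645).

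**Figure D5:**
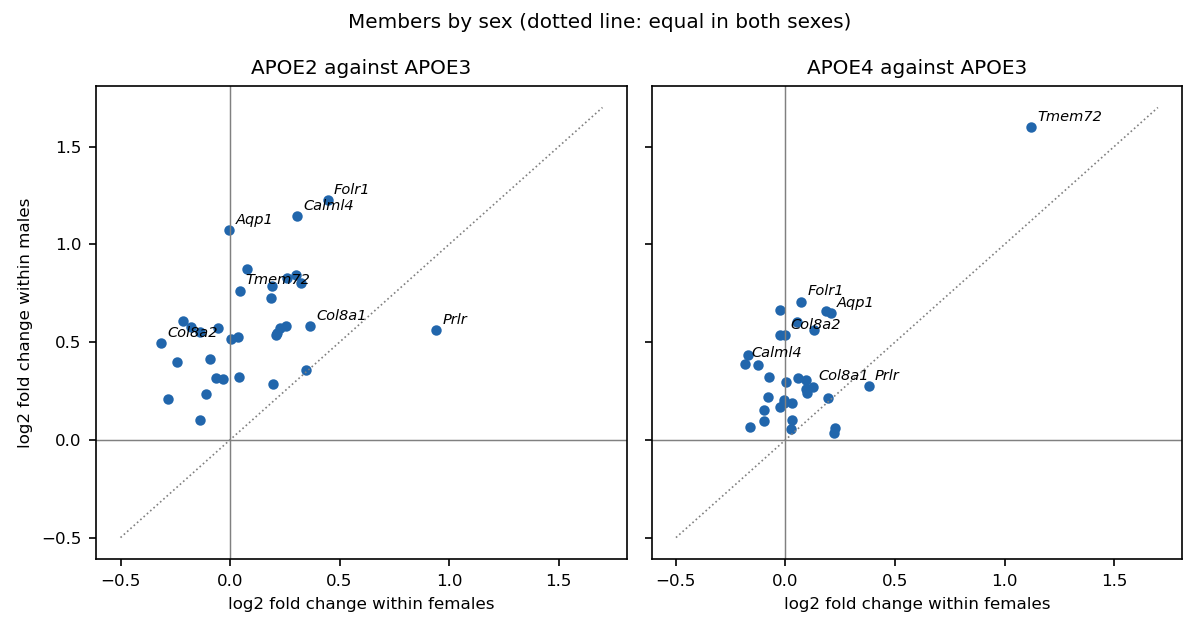
Fitted log2 fold change of the 33 genes within females (horizontal) and within males (vertical), for APOE2 against APOE3 (left) and APOE4 against APOE3 (right), 3 mice per sex and genotype; the dotted line marks equal change. In the left panel 32 of 33 points lie above the line, with Prlr below it.

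Partner genes outside the list, in 5 groups, were read out of the same test. Of 23 further ion and water transport genes tested, 17 had a fitted difference above 0 in APOE2 against APOE3, with a median of 0.05. Oxsr1, a kinase that activates chloride cotransporters, rose, at 78.2 ± 4.29 CPM in APOE2 and 69.9 ± 2.23 CPM in APOE3 (SD, n = 6 each; 0.16, edgeR adjusted p = 0.0287). Oxsr1 is expressed across the brain, so these levels are not of the plexus alone. The levels of the other partner genes below, Slc31a1, Htr2c and Wnt5a among them, are likewise of the whole hemibrain. How much of them came from the plexus was not tested.

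Of 28 genes for solutes, vitamins and hormones, 12 were above 0 (median -0.01). Slc31a1, a copper importer, rose by 0.23 (edgeR adjusted p = 0.033) in APOE2 against APOE3. Of 26 identity and junction genes, 19 were above 0 (median 0.12), and Htr2c, the serotonin receptor that is dense in the plexus, rose, at 89.2 ± 7.81 CPM in APOE2 and 75.5 ± 3.16 CPM in APOE3 (SD, n = 6 each; 0.24, edgeR adjusted p = 0.0372).

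None of 18 prolactin, growth hormone and IGF genes around Prlr and Igf2 was called in APOE2 against APOE3 by edgeR, and 6 were above 0. Of all genes, 3.91% were called in that pair. Of 17 klotho, FGF, WNT and BMP partners 9 were above 0, and Wnt5a, a WNT ligand, rose by 0.24 (edgeR adjusted p = 0.0392). None of these 5 groups had a called gene in APOE4 against APOE3, where only 0.773% of all genes were called. In APOE2 against APOE4, with 6.53% of all genes called, the called partners included Wnk1, Igfbp5 and Wnt5a, which rose, and Trf and Sfrp1, which fell. Trf, transferrin, the iron carrier, fell by 0.45 on the log2 scale, with 16.6 ± 3.07 CPM in APOE2 mice, against 22.6 ± 2.11 CPM in APOE4 mice (SD, n = 6 each; edgeR adjusted p = 0.00688).

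Markers of neighbouring cells were compared with the list, and no listed marker of them was at 0 in every library. Summed CPM of 16 ependymal markers ran from 52.9 to 71.2 in APOE2, 51.3 to 64.6 in APOE4 and 50.8 to 63.6 in APOE3 mice. In APOE2 against APOE3, 12 of these 16 were above 0 with a median of 0.04; Tekt1 rose, at 0.83, and Ccdc153 fell by 1.01 on the log2 scale. Summed CPM of 18 meningeal and stromal fibroblast markers ran from 167 to 276 in APOE2, 178 to 244 in APOE4 and 158 to 284 in APOE3 mice. Of these, 11 were above 0 in APOE2 and 17 in APOE4 against APOE3, with medians of 0.07 and 0.17. None was called by edgeR in either pair, where 3.91% and 0.773% of all genes were called.

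With the summed stromal level as a covariate, a choice made after the data were seen, 5 genes of the list were called in APOE2 against APOE3 and 1 in APOE4 against APOE3, with medians of 0.32 and 0.11. Of all genes, 3.82% and 0.837% were called in these fits. Igf2, Igfbp2 and Slc13a4 had their highest APOE3 levels in female replicate 6, the APOE3 mouse with the highest stromal sum, 284 CPM. In APOE2 these genes were highest in replicate 5, while the stromal sum was highest in replicate 2, at 276 CPM. In APOE4 the stromal sum and Igfbp2 were highest in replicate 2, and Igf2 and Slc13a4 in replicate 1. Border macrophage markers were above 0 for 8 of 9 in APOE2 against APOE3 (median 0.21) and summed to 21.7 to 34.2, 22.9 to 31.5 and 21.4 to 33.3 CPM in APOE2, APOE4 and APOE3 mice. All 5 red cell markers were above 0 (median 0.48), at summed levels of 63.4 to 206 CPM in APOE2 and 55.4 to 105 CPM in APOE3 mice. Pituitary markers summed to at most 9.95 CPM in APOE2 and 29.5 CPM in APOE3 mice, and to 173 CPM in APOE4 replicate 5.

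Markers of brain regions and astrocytes were read in the same test. Summed CPM of 10 thalamus and habenula markers had a lowest, median and highest value of 380, 447 and 558 in APOE2, 362, 376 and 428 in APOE4 and 388, 402 and 427 in APOE3 mice. The highest APOE2 sums were those of replicates 1 and 5, at 558 and 525 CPM, mice in which 29 and 32 of the 33 plexus genes lay above the APOE2 mean, and replicate 2, with 5 above it, came next at 469 CPM. In APOE2 against APOE3, 7 of these 10 markers were above 0 (median 0.14), and Tcf7l2, a WNT pathway transcription factor of the thalamus, rose by 0.21 (SE 0.06, edgeR adjusted p = 0.0461). Of 8 astrocyte markers 7 were above 0 (median 0.06), and Gfap, the astrocyte filament protein, rose by 0.36 (SE 0.08, edgeR adjusted p = 0.00800). Of 6 pineal and retina markers tested, 1 was above 0 in APOE2 against APOE3 (median -0.24), with summed levels of 20.1 to 25.4 CPM in APOE2 and 23.9 to 29.9 CPM in APOE3 mice. The part of ependymal, macrophage, red cell, pituitary, pineal, thalamus and habenula tissue and of astrocytes in the differences of the list was not tested.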

How the data were processed

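PolyA RNA of hemibrains was sequenced as stranded single-end libraries, per the labels' protocols, 1 library a mouse and 6 mice a genotype, grouped by the labelled genotype and sex. The submitters' processing notes name Trimmomatic for trimming, STAR 2.7.0 for alignment (genome GRCm38/mm10), featureCounts for counting and DESeq2 for testing. Not given in the sources used here are the annotation release, the counting strand and the terms of the DESeq2 model. Raw counts per gene symbol were deposited by the authors. Per the file headers, their deposited comparison tables hold a mean signal (size-factor normalized counts), the log2 fold change with its standard error, a Wald score, and the p-value with its adjusted form.

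From the raw counts, 26 symbols turned into dates (0.304% to 0.322% of a library) were left out. Tests used edgeR 4.0.16 (R 4.3.3) with TMM scaling, filterByExpr, robust quasi-likelihood F tests and genotype and sex as additive terms, in 1 fit of 18 libraries over 18891 genes. Interactions and differences within a sex used a model with its own mean for each genotype and sex group (19352 genes). A standard error is the size of the log2 fold change divided by the square root of F. Exon lengths, positions and exon overlaps are from the GENCODE annotation of GRCm38. The biological coefficient of variation was 0.0845, and chi-square per degree of freedom between replicates was 5.77 to 46.5, so no 2 libraries agreed within counting noise. On simulated counts for APOE2 against APOE3 with 18891 genes, 74% of genes planted at a log2 change of 0.5 and 94% at 1 were called, with 5 of 18691 other genes. These shares are not for the choroid plexus list, whose genes varied more between mice. The median coefficient of variation of the list was 24.1% in APOE2 and 15.8% in APOE3, against 8.22% and 5.80% for other genes. How often a listed gene with such a change would be called was not tested.

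The 33 genes, the partner and marker lists and the tests were chosen with earlier results of these data known. Genes called in a genotype pair and Ttr, Folr1, Kl, Aqp1 and Otx2 get full values, other genes of the list their fitted difference, and up to 4 called partners per group and pair are named. Some called partner genes are not reported here. Alternatives were DESeq2 size factors, DESeq2 1.42.0, limma voom (limma 3.58.1), no filter, at least 1 CPM in 6 libraries, no sex term, the 12 libraries of a pair, titles ending in e or f, Ttr as a covariate, stromal markers as a covariate (added after the data were seen) and leaving out each library.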

Additional observations from a re-analysis of the deposited data

Results flagged for a closer look

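In 7 of 99 groups of 6 mice (33 genes in 3 genotypes), the highest or lowest level lay far from the rest, with a gap to the next value above 0.625 of the group's range. Chance alone gives about 1 in 20. Female APOE3 replicate 5 had 3 of them, all highest: Tmem72 at 9.211 CPM (next 6.433), Kcne2 at 5.16 CPM (next 2.966) and Cldn2 at 3.991 CPM (next 3.193). This mouse also had 30 of 33 genes above the APOE3 mean. Female APOE3 replicate 6 had 2, the transporter Slc13a4 at 23.42 CPM (next 12.99) and Igfbp2 at 41.74 CPM (next 29.53). It had the highest summed stromal markers of the APOE3 mice, 284 CPM, whose part in these levels was not tested. The secreted protein Wfdc2 was lowest in female APOE4 replicate 3, at 0.586 CPM (next 0.8714), and Lbp was highest in male APOE2 replicate 5, at 8.39 CPM (next 6.463). None of these 7 was among the genes called in APOE2 against APOE3, and the Tmem72 difference of APOE4 from APOE3 stayed between 1.23 and 1.52 on the log2 scale whichever library was left out.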

How the results depend on the processing

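The median difference of the 33 genes kept its sign in every alternative run: leaving out 1 library gave 0.29 to 0.41 for APOE2 against APOE3, 0.11 to 0.22 for APOE4 against APOE3 and 0.09 to 0.24 for APOE2 against APOE4. Leaving out 1 library gave 3 to 8 called for APOE2 against APOE3 (3.01% to 5.39% of all genes) and 1 for APOE4 against APOE3 (0.546% to 0.851%). It gave 2 to 5 for APOE2 against APOE4 (4.97% to 10.0%) and 0 to 1 for female against male (0.110% to 0.194%). That 1 was Prlr, without APOE3 replicate 6. Each interaction had 0 of the list called, with at most 0.0559% of all genes. With Ttr as a covariate 8 were called in APOE2 against APOE3 (3.5% of all genes). Among APOE4 and APOE3 titles ending in e or f 0 were called (0.674% of all genes), in a fit with 10 mice (Tmem72 adjusted p = 0.0653 by edgeR). DESeq2 called 1 for female against male (0.312% of all genes). With no filter on low counts the interaction calls were 10 for APOE2 against APOE3, 3 for APOE4 against APOE3 and 1 for APOE2 against APOE4, against 0.497%, 0.447% and 0.129% of all genes, and the cause was not tested. Calml4 and Col8a1 stayed called in APOE2 against APOE3, and Calml4 and Tmem72 in APOE2 against APOE4, in every alternative run. Cab39l also lost its call in APOE2 against APOE3 with at least 1 CPM in 6 libraries (edgeR adjusted p = 0.0618), limma voom (0.0577), Ttr as a covariate (0.0769) and stromal markers as a covariate (0.0693), and Car12 with no filter (0.0586). Folr1 became called with DESeq2 (0.0193), limma voom (0.0403), no sex term (0.0451) and Ttr as a covariate (0.00361), and without APOE2 replicate 3 or 6 or APOE3 replicate 5. Differences near 0 changed sign: Ttr in APOE4 against APOE3 was -0.0044 without APOE3 replicate 2 and -0.0067 without APOE4 replicate 2 (range -0.0067 to 0.17 over all libraries left out, and 0.08 to 0.34 in APOE2 against APOE3), and Aqp1 in APOE2 against APOE4 was -0.0158 with Ttr as a covariate. No paired analysis was possible because the mouse numbers in the titles do not recur between genotypes and the replicate numbers follow accession order. Steap1, Wfdc2 and Oca2 had as few as 29 to 33 reads in a library, which limits their precision. The effect of depth on the calls was not tested.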
